A study of Mus musculus with 9 samples.

Results

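Heat shock proteins are molecular chaperones, and the DNAJ proteins are their cochaperones. The genes described here are all rows of the deposited table whose symbol begins with Hspa, Hspb, Hsp90, Dnaja, Dnajb or Dnajc, together with Hspd1, Hspe1, Hsph1, Hsf1 and Hsf2. They number 76 of 24964 symbols, and 69 of them had enough counts to be tested. By class there are 13 HSP70 genes, 1 HSP110 gene, 3 HSP90 genes, 8 small heat shock proteins, 2 mitochondrial chaperonin genes, 4 DNAJA, 13 DNAJB and 28 DNAJC genes, 2 heat shock factors, and 2 genes (Hspbp1 and Hspbap1) that the prefix Hspb brings in although they encode partners of heat shock proteins. The prefix also places Hspb11 among the small heat shock proteins, although its product, IFT25, serves intraflagellar transport, and it leaves out the small heat shock protein Cryab.

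The counts come from bulk RNA sequencing of hearts from male C57BL/6JR mice aged 8 weeks, with 3 mice in each of 3 groups and no transgene or drug. In the MI (myocardial infarction) groups a ligature closed the left anterior descending artery of the heart, and hearts were taken after 28 d or after 7 d. The sham mice had the chest opened without ligation. The time at which sham hearts were taken is not given, and the tissue is given only as heart, so the part of the heart that was sampled is not known. Totals were 15300344 to 15770389 counts at 28 d, 18355720 to 19238101 at 7 d and 12351525 to 13629120 in sham hearts. Cardiomyocyte markers (12 genes) were all detected and summed to 48583 to 81232 CPM at 28 d, 20965 to 26135 CPM at 7 d and 130992 to 134239 CPM in sham hearts, where CPM are counts scaled to a common library size. Fibroblast markers (10 genes) summed to 6427 to 12506, 36382 to 47458 and 2331 to 2394 CPM in the same order of groups, and macrophage markers (10 genes) to 1072 to 1682, 4985 to 6096 and 613 to 687 CPM. The sham hearts varied little among themselves (biological coefficient of variation 2.73%), the hearts at 7 d more (17%) and those at 28 d most (24.1%). The fat gene Adipoq stood at 130 and 122 CPM in replicates 1 and 3 at 28 d. It stood at 217 CPM in replicate 3 at 7 d, against 0.423 to 3.12 CPM in the other 6 hearts. A fit without those 3 hearts keeps only replicate 2 at 28 d, and replicates 1 and 2 at 7 d. Its 28 d values thus rest on 1 mouse, with a spread borrowed from the other groups. At 7 d against sham 2 calls among members were lost in it.

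HSP70 chaperones bind unfolded stretches of protein and release them under control of ATP. DNAJ proteins deliver the client and trigger ATP hydrolysis through their J domain, and nucleotide exchange factors such as the HSP110 proteins reset the cycle. HSP90 completes the folding of kinases and steroid receptors, small heat shock proteins hold unfolded proteins without using ATP, and the chaperonin HSP60 with its lid HSP10 folds proteins in the mitochondrial matrix. In heart muscle these proteins are known for their part in keeping sarcomere proteins and mitochondria in order. Heat shock factor 1 switches on the inducible genes through heat shock elements, which are repeats of the letters GAA and their complement TTC, and a separate element, the ER stress response element, stands before chaperone genes of the endoplasmic reticulum (ER).

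Stretches before the start sites of members are shown because they hold the elements named above, and examples were chosen after values had been seen. They were read from RefSeq (GRCm38.p6), 5′ to 3′ on the strand of the gene, and capitals mark the matches. The first set carries pairs of heat shock units, spelled GAANNTTC or TTCNNGAA and searched on both strands. Of the 14 members with such a pair these are shown: Hspa1b (chr17:34959239-34959388, minus strand), Hspa1a (chr17:34972157-34972306, minus strand), Hspb1 (chr5:135887769-135887918, plus strand), Dnaja1 (chr4:40722333-40722362, plus strand), Hsph1 (chr5:149636351-149636380, minus strand) and Hspe1 (chr1:55088053-55088082, plus strand). The stretch of Hspe1, which lies head to head with Hspd1, holds overlapping pairs. In GENCODE M21 all 30 bases shown for Dnaja1 and for Hspe1, and 26 of those for Hsph1, lie in an annotated exon, that of Hspd1 in the case of Hspe1. The others are Dnaja4, Dnajb4, Dnajb6, Dnajc10, Dnajc27, Hspb3, Hspb6 and Hspd1.
Hspa1b: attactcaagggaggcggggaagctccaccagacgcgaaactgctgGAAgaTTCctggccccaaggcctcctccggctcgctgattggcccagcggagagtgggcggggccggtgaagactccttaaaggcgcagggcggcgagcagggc
Hspa1a: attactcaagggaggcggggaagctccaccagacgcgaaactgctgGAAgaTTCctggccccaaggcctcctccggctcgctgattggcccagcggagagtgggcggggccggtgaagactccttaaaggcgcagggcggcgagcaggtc
Hspb1: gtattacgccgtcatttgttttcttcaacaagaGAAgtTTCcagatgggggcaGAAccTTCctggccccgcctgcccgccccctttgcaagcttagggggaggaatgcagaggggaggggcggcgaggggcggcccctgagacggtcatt
Dnaja1: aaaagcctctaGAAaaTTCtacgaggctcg
Hsph1: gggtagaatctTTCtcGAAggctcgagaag
Hspe1: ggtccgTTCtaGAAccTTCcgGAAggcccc

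The ER stress response element, which reads CCAAT, then 9 bases of any kind, then CCACG, searched on both strands, marks the other set. It comprises Hspa5 (chr2:34772020-34772049, plus strand), Hsp90b1 (chr10:86705529-86705669, minus strand, a match on each strand) and Dnajc3 (chr14:118937782-118937931, plus strand). All 30 bases shown for Hspa5 lie in an exon of Hspa5 in GENCODE M21.
Hspa5: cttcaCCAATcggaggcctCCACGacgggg
Hsp90b1: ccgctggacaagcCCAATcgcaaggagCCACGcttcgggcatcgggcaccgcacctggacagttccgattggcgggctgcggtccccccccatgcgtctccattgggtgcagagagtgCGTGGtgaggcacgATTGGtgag
Dnajc3: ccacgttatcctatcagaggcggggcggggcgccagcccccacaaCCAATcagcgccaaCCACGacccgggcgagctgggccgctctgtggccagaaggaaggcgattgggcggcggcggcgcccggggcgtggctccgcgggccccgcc

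Of the 76 members 61 had such a window of 250 bases before a start site. The other 15, among them Hsp90aa1, Hsp90ab1, Hspa8, Hspa9, Hspa13 and Hsf1, had no window and were not searched for any element. The pair GAANNTTC was in a window of 11 members (18%), against 7.73% of all 27025 genes with windows, and TTCNNGAA in one of 6 members (9.84%), close to the 8.11% of all genes. Both pairs overlapping so that they share the middle unit were found before Dnajb6, Hspd1 and Hspe1 (4.92%), against 0.514% of all genes, and these matches overlap those of the pairs. The matches of Hspd1 and Hspe1 are the same bases read from opposite strands. All these shares count genes and not separate sites, so that stretch enters under both genes, as do the nearly identical windows of Hspa1a and Hspa1b. The ER stress response element was found before Dnajc3, Hsp90b1 and Hspa5 (4.92%), against 0.13% of all genes. The 14 members with either heat shock pair differed in direction: at 7 d against sham 2 rose and 8 fell, and at 28 d against sham 6 rose and 5 fell. The 250 bases before Hspa1a and Hspa1b are 98.8% identical. Matches are letters in a window and not binding sites. Dnajb6, whose matches in windows of different start sites are the same bases, passed in no comparison below.

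**Figure D1:**
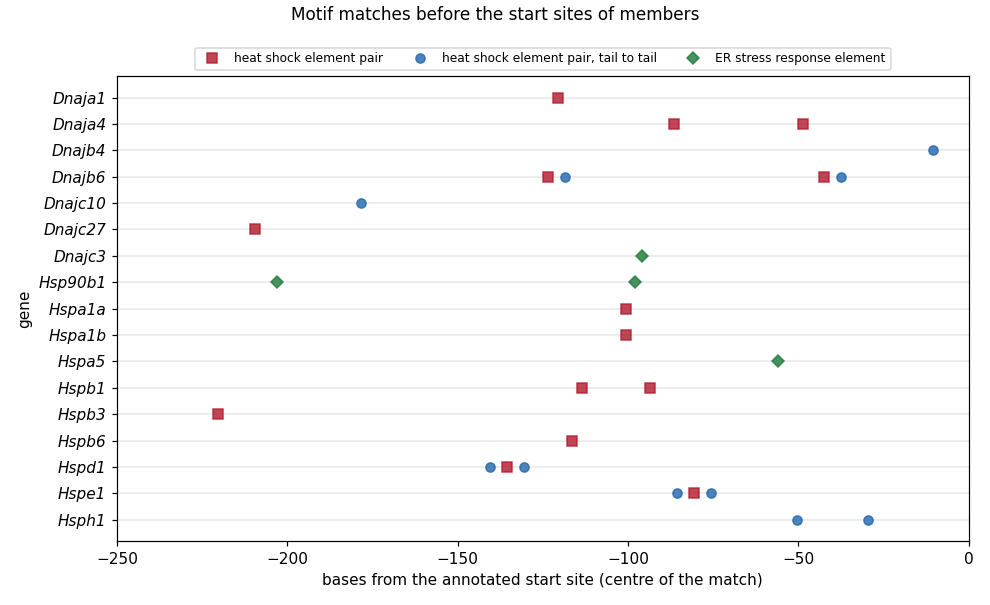
Position of each motif match before the start sites of members (x axis, bases from the annotated start site; 1 row per gene). For Dnajb6 and Hsph1 the same bases are drawn at more than 1 distance, once for each annotated start site. Squares are GAANNTTC, circles TTCNNGAA and diamonds the ER stress response element, and the matches of Hspa1a and Hspa1b stand at the same distance.

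Most of the family was lower 7 d after infarction, and much of it was higher again at 28 d. At 7 d against sham, 15 of the 69 tested members rose and 42 fell, with a median log2 fold change (log2 FC) of -0.63 over the members and 0.06 over all 14347 tested genes. That is 21.7% and 60.9% of the tested members, against 39% higher and 35.4% lower among all tested genes (74.4% called in all). At 28 d against sham, 15 rose and 24 fell (21.7% and 34.8%; median -0.08, against 0.05 over all genes, of which 29.5% were higher and 25.6% lower, 55.1% in all). At 28 d against 7 d, 46 rose and 6 fell (66.7% and 8.7%; median 0.53, against 0.03 over all genes, of which 29.1% were higher and 26.1% lower, 55.2% in all). The CPM of the hearts compared did not overlap for 62 of the 69 members at 7 d against sham (80.8% of all tested genes), 46 at 28 d against sham (66.4%) and 58 at 28 d against 7 d (59.8%). These calls are from edgeR's quasi-likelihood test with a Benjamini-Hochberg adjusted p below 0.05, and log2 FC are given ± standard error. Changes below are log2 FC unless a fold is named, "between the times" means 28 d against 7 d, and "rose" and "fell" are used of calls at this threshold. Scaled by library size alone, which moved the median of all genes to 0.398, 0.303 and -0.0516, the split became 22 higher and 37 lower at 7 d, 25 and 16 at 28 d, and 41 and 7 between the times. The spread in the main fit is estimated from all 3 groups, so the uniform sham hearts also enter the comparison between the times. With only the hearts compared, 16 members were higher and 45 lower at 7 d, and 14 and 24 at 28 d. Between the times that fit gave 40 and 6, against 3131 and 3550 of 14239 tested genes.

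Summed over the 76 genes, the family took 1.55%, 1.39% and 1.38% of all counts at 28 d and 0.889%, 0.791% and 0.85% at 7 d, against 1.42%, 1.44% and 1.39% in sham hearts. The 7 d hearts were below all others in this share, and the 28 d hearts overlapped the sham hearts. A single pattern held 21 members, which were lower at both times than in sham hearts and higher at 28 d than at 7 d. Another 15 fell at 7 d, did not pass at 28 d against sham, and were higher at 28 d than at 7 d. In bulk tissue fewer cells of a type and less RNA per cell cannot be told apart. The cardiomyocyte markers had a median log2 FC of -3.03 at 7 d, -1.16 at 28 d and 1.85 at 28 d against 7 d, and the fibroblast markers 3.71, 1.86 and -2.25, and their part in the changes of the family was not tested.

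**Figure D2:**
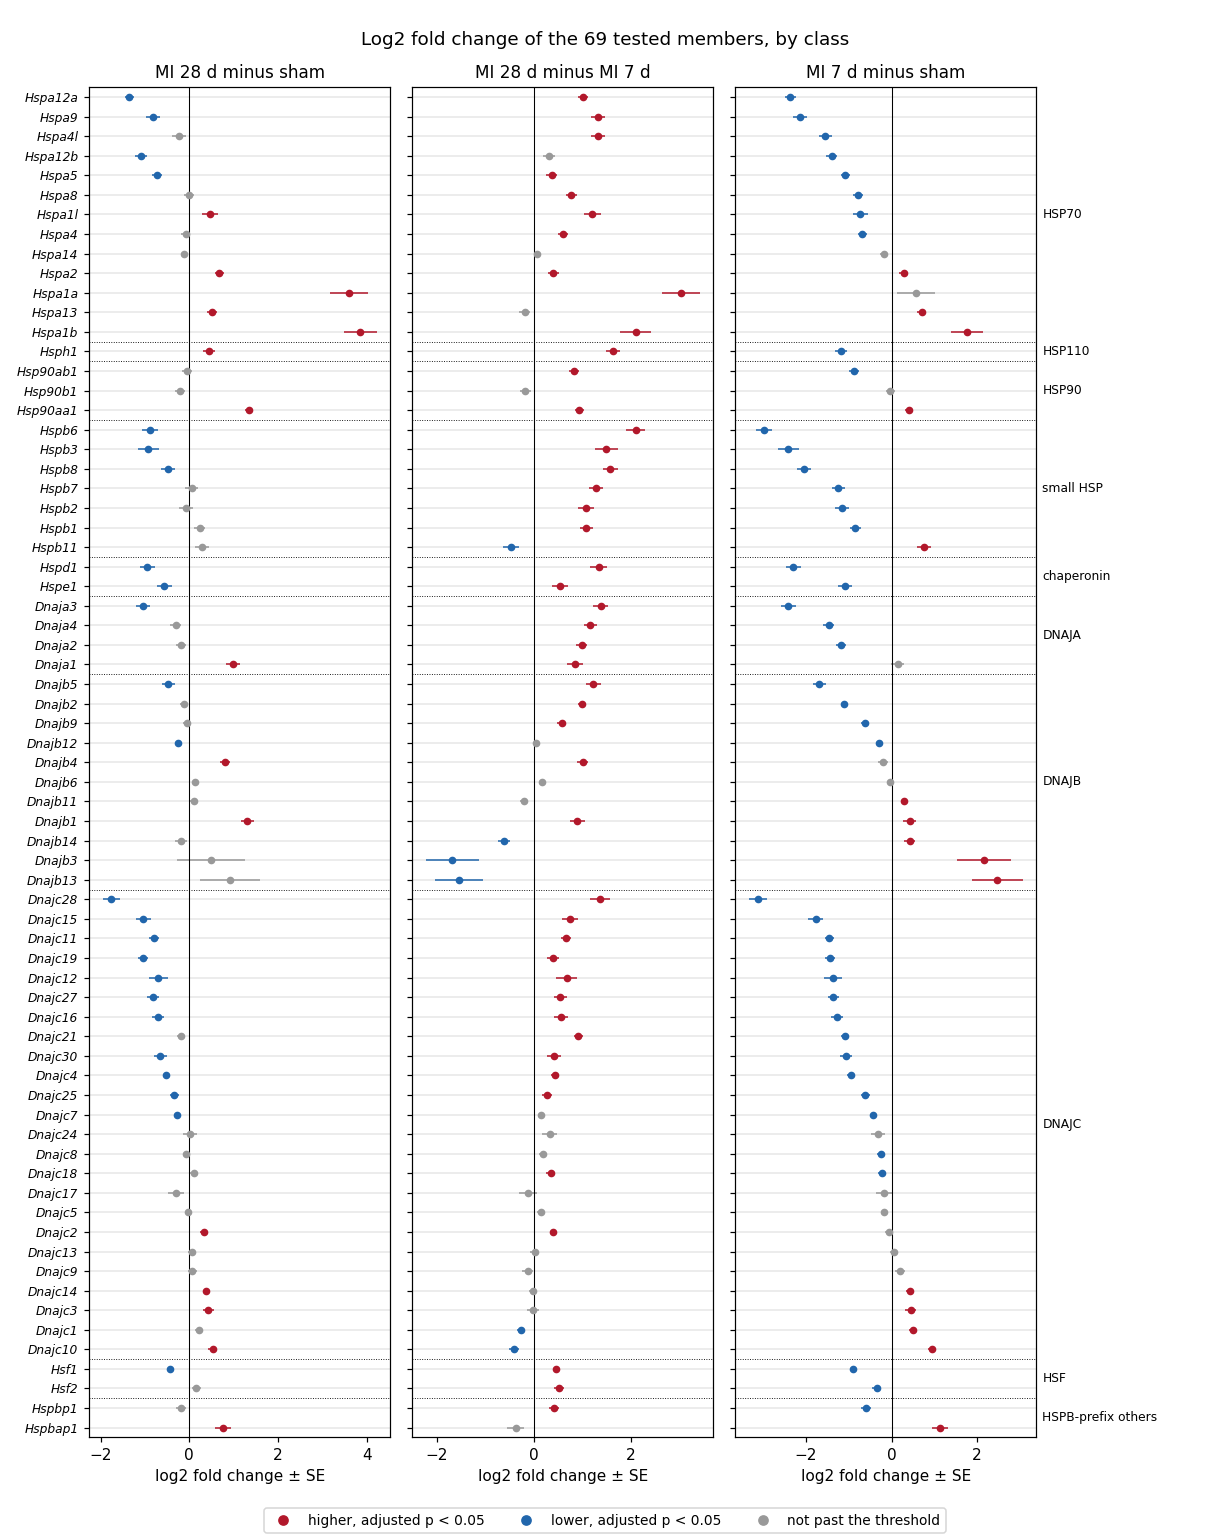
Log2 fold change ± SE (x axis) of each tested member (rows, by class) for 28 d minus sham, 28 d minus 7 d and 7 d minus sham. Red is higher and blue lower at an edgeR adjusted p below 0.05, and the middle panel shows 46 red and 6 blue points.

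The largest rises at 28 d were those of stress-inducible members of the cytosol. Hspa1a and Hspa1b encode the same kind of inducible HSP70 and lie next to each other on chromosome 17, at 34969359-34972156 and 34956429-34959238. Hspa1b had 42.5, 15 and 31.5 CPM at 28 d, 6.25, 7.53 and 7.07 CPM at 7 d, and 2.27, 2.12 and 1.77 CPM in sham hearts. The 3 groups did not overlap, and the gene rose at both times, by a log2 FC of 3.85 ± 0.37 at 28 d (14.4-fold, edgeR adjusted p = 5.76e-05) and 1.76 ± 0.37 at 7 d (edgeR adjusted p = 0.00177). Its level at 28 d was 4.26 times that at 7 d (edgeR adjusted p = 0.000392). Hspa1a had 53.8, 15.7 and 28.4 CPM at 28 d, 4.38, 3.27 and 4.38 CPM at 7 d, and 3.23, 2.3 and 2.54 CPM in sham hearts. It rose 12.1-fold at 28 d (log2 FC 3.59 ± 0.43, edgeR adjusted p = 0.000176) and did not pass at 7 d (0.57 ± 0.44, edgeR adjusted p = 0.262), although a fit of the 6 hearts compared alone called it (0.58, edgeR adjusted p = 0.0317).

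The 28 d hearts differed widely in these genes, and the highest heart had 3.43 times the Hspa1a level of the lowest, the widest such spread of the 69 tested members at 28 d. The lowest of the 3, replicate 2, was also the one low in Adipoq (0.496 CPM). Without the 3 Adipoq-rich hearts, which leaves replicate 2 alone at 28 d, the log2 FC at 28 d against sham was 2.85 for Hspa1b and 2.53 for Hspa1a. Against 7 d it was 1.11 and 2.03. Of the 50-base stretches of the longest coding transcripts, 58.8% of those of Hspa1a occur in Hspa1b and 62.3% of those of Hspa1b in Hspa1a, and how the authors counted reads that map to more than 1 place is not given, so the split between them is uncertain. Their sum was 96.2, 30.6 and 59.9 CPM at 28 d and 10.6, 10.8 and 11.5 CPM at 7 d, against 5.5, 4.41 and 4.31 CPM in sham hearts.

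Hspa8, the constitutive cytosolic HSP70, behaved otherwise. It had 2115, 1647 and 1730 CPM at 28 d and 1130, 1002 and 1083 CPM at 7 d, against 1866, 1853 and 1787 CPM in sham hearts. It fell at 7 d (log2 FC -0.78 ± 0.12, edgeR adjusted p = 0.000176), while at 28 d the groups overlapped (edgeR adjusted p = 0.983). Within each heart, the level per exon length (TPM) of Hspa1a plus Hspa1b was 0.0677, 0.0277 and 0.0517 times that of Hspa8 at 28 d and 0.0141, 0.0163 and 0.0159 times at 7 d, against 0.00437, 0.00355 and 0.00358 times in sham hearts. This ratio does not depend on the scaling between hearts. Its values overlapped between no pair of groups (two-sided exact permutation p = 0.1 for each pair, the smallest that 3 against 3 hearts can give, and 0.12 after adjustment over 6 such tests).

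The HSP90 genes of the cytosol showed the same division into an inducible and a constitutive form. Hsp90aa1, the inducible alpha form, had 416, 355 and 415 CPM at 28 d and 222, 200 and 202 CPM at 7 d, against 158, 157 and 154 CPM in sham hearts. It rose at 28 d (log2 FC 1.34 ± 0.09, edgeR adjusted p = 9.93e-06), at 7 d (0.41 ± 0.09, edgeR adjusted p = 0.00205) and at 28 d over 7 d (0.93 ± 0.09, edgeR adjusted p = 3.37e-05). The constitutive beta form, Hsp90ab1, fell at 7 d and was not called at 28 d against sham. It had 2010, 1703 and 1690 CPM at 28 d and 1111, 956 and 1002 CPM at 7 d, against 1888, 1878 and 1880 CPM in sham hearts (log2 FC -0.06 ± 0.11 at 28 d, not called, and -0.88 ± 0.11 at 7 d). The ratio of Hsp90aa1 to Hsp90ab1 in TPM was 0.158, 0.159 and 0.187 at 28 d and 0.153, 0.159 and 0.153 at 7 d, against 0.0639, 0.0637 and 0.0625 in sham hearts. The mean ratio was 2.65 times that of sham at 28 d and 2.45 times at 7 d, without overlap (two-sided exact permutation p = 0.1 for each), while the 2 times overlapped (p = 0.3, exact permutation test).

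**Figure D3:**
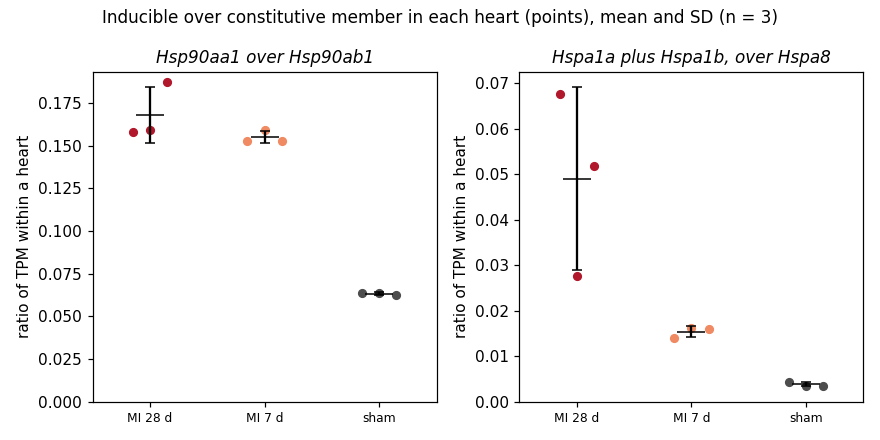
TPM of Hsp90aa1 over that of Hsp90ab1 and of Hspa1a plus Hspa1b over that of Hspa8 within each heart (points; bars are mean and SD, n = 3), by group. The alpha to beta ratio overlapped between 28 d and 7 d and lay above sham at both, and the points of the HSP70 ratio stood highest at 28 d.

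Of the J proteins of types A and B, Dnajb1, Dnaja1 and Dnajb4 rose at 28 d against sham. In all 1 of the 4 DNAJA genes rose and 1 fell there, and of the 11 tested DNAJB genes 2 rose and 2 fell. Dnajb1, the main inducible J protein (HSP40), had 77.2, 52 and 58.4 CPM at 28 d and 38.6, 31.9 and 30.4 CPM at 7 d, against 27.3, 23.4 and 24.8 CPM in sham hearts. The groups did not overlap, and it rose at 28 d by a log2 FC of 1.31 ± 0.15 (edgeR adjusted p = 0.000166). Its smaller rise at 7 d (0.42 ± 0.15, edgeR adjusted p = 0.031) was lost when sham replicate 2 (0.36, edgeR adjusted p = 0.0999), sham replicate 3 (0.4, 0.0811) or 7 d replicate 1 (0.31, 0.117) was left out. Dnaja1, a type I J protein of the cytosol, had 141, 91.6 and 137 CPM at 28 d and 76, 59.9 and 70.8 CPM at 7 d, against 64.1, 62.6 and 60.3 CPM in sham hearts. It rose at 28 d only (log2 FC 0.98 ± 0.16, against 0.14 ± 0.16 at 7 d, and 0.84 ± 0.16 between the times, edgeR adjusted p = 0.00139), except that library size alone also called 7 d (0.48). Dnajb4, a close relative of Dnajb1, had 255, 213 and 183 CPM at 28 d and 111, 110 and 105 CPM at 7 d, against 122, 125 and 127 CPM in sham hearts. Its rise at 28 d was 1.74-fold (log2 FC 0.80 ± 0.11), and its value at 7 d, -0.20 ± 0.11, was called lower in 4 of the alternative fits.

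The HSP110-type exchange factors of cytosolic HSP70 fell at 7 d. Hsph1, the HSP110 gene (chromosome 5, 149616843-149636498), had 147, 93.7 and 120 CPM at 28 d and 40.1, 36.2 and 39.7 CPM at 7 d, against 92, 85 and 87.4 CPM in sham hearts. It was thus lower than sham at 7 d (log2 FC -1.19 ± 0.14, edgeR adjusted p = 3.61e-05) and higher at 28 d (0.45 ± 0.14, edgeR adjusted p = 0.0209). The rise at 28 d was lost without sham replicate 2 (0.41, edgeR adjusted p = 0.075), sham replicate 3 (0.43, 0.0683) or 28 d replicate 1 (0.27, 0.0608). It shrank to 0.08 without the Adipoq-rich hearts, a fit with 1 heart at 28 d. The difference between the times, 1.63 ± 0.14, stayed called in every alternative that was run. Of the HSP110-like genes of the HSP70 class, Hspa4l had 82.1, 57.6 and 57.9 CPM at 28 d and 28.7, 27.9 and 22.5 CPM at 7 d, against 80.4, 71.2 and 80.5 CPM in sham hearts (log2 FC -1.55 ± 0.15 at 7 d), and Hspa4 fell by 0.68 ± 0.10 at 7 d. Neither passed at 28 d against sham, but Hspa4l was called lower there without 28 d replicate 1 (-0.43, edgeR adjusted p = 0.0086). Without the Adipoq-rich hearts its value there was -0.44. Other exchange factors differed in direction at 7 d. Hspbp1 fell by 0.60 ± 0.11, and of those outside the name rule Bag1, Bag2 and Bag3 fell (-0.90, -1.11 and -1.53), Bag4 and Bag5 were not called (0.50 and 0.22), and Sil1, the exchange factor of BiP in the ER, rose (0.49 ± 0.08, edgeR adjusted p = 0.000251).

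Other HSP70 genes went separate ways. Hspa2, known best from testis, had 13.7, 16.7 and 17.3 CPM at 28 d and 12.6, 11.4 and 12.2 CPM at 7 d, against 10.2, 9.84 and 9.72 CPM in sham hearts. Its rise at 28 d (log2 FC 0.68 ± 0.11, edgeR adjusted p = 0.000964) was called in all alternatives, and that at 7 d (0.28 ± 0.11, edgeR adjusted p = 0.0464) was lost in 11 of them, with adjusted p of up to 0.156. Hspa1l, which lies beside Hspa1a and shares 9.57% of its 50-base stretches with it, fell at 7 d (-0.73 ± 0.18). Its rise at 28 d (0.47 ± 0.18, edgeR adjusted p = 0.0485) was lost in 11 alternatives. Hspa12b, an atypical member known from endothelial cells, had 33.8, 35 and 24.9 CPM at 28 d and 27.3, 22.5 and 25.7 CPM at 7 d, against 69.2, 63 and 66.8 CPM in sham hearts. It fell at both times (log2 FC -1.09 ± 0.13 at 28 d and -1.40 ± 0.13 at 7 d), and endothelial markers (10 genes) summed to 1130 to 1691 CPM at 28 d and 1169 to 1946 CPM at 7 d, against 2723 to 2847 CPM in sham hearts, whose part in this was not tested. Its relative Hspa12a had 34.7, 30.5 and 30.4 CPM at 28 d and 13.1, 16.5 and 17.9 CPM at 7 d, against 83.6, 79.5 and 80.3 CPM in sham hearts. Hspa12a fell by 1.35 ± 0.11 at 28 d and 2.36 ± 0.12 at 7 d, with no overlap of groups. Hspa14, which works with Dnajc2 at the ribosome, did not pass in any comparison, although 4 alternatives called it lower at 7 d.

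**Figure D4:**
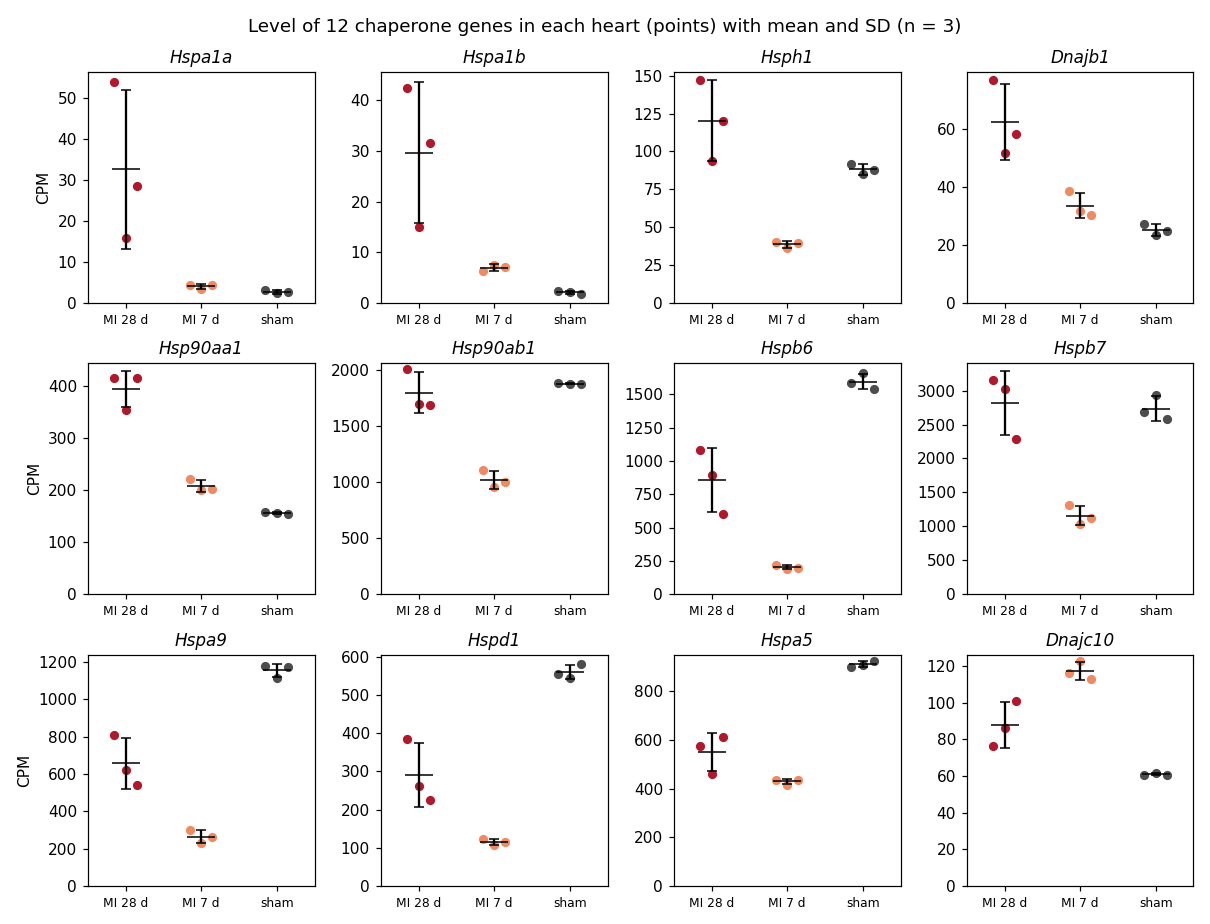
CPM of 12 members in each heart (points; y axis from 0; bars are mean and SD, n = 3) at 28 d, at 7 d and in sham hearts. Hspa1a, Hspa1b, Dnajb1 and Hsp90aa1 were highest at 28 d, Hspb6, Hspa9, Hspd1 and Hspa5 were highest in sham hearts, and Dnajc10 was highest at 7 d.

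The small heat shock proteins include the most abundant member per exon length, and their summed CPM was lowest at 7 d. Hspb7, the cardiovascular small heat shock protein, ranked first of all 76 members in each group, with 3600 ± 432 TPM at 28 d and 1620 ± 134 TPM at 7 d, against 2919 ± 207 TPM in sham hearts (SD, n = 3). In CPM it had 3156, 3017 and 2286 at 28 d and 1314, 1041 and 1119 at 7 d, against 2686, 2933 and 2574 in sham hearts. It fell 2.36-fold at 7 d (log2 FC -1.24 ± 0.15, edgeR adjusted p = 3.87e-05) and did not pass at 28 d (0.05 ± 0.15). Hspb6 (HSP20, a target of protein kinase A in heart muscle) had 1079, 895 and 605 CPM at 28 d and 218, 192 and 196 CPM at 7 d, against 1586, 1658 and 1542 CPM in sham hearts. No groups overlapped. Hspb6 fell 7.9-fold at 7 d (log2 FC -2.98 ± 0.19, edgeR adjusted p = 7.96e-07) and was still 1.86-fold lower at 28 d (-0.89 ± 0.18, edgeR adjusted p = 0.00257). Among all members it held rank 4 in TPM at 28 d and rank 8 at 7 d, against rank 2 in sham hearts.

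Hspb8, the partner of BAG3 in clearing damaged sarcomere proteins, had 793, 659 and 567 CPM at 28 d and 276, 187 and 216 CPM at 7 d, against 946, 944 and 931 CPM in sham hearts. It fell by a log2 FC of 2.05 ± 0.16 at 7 d, and its lower level at 28 d (-0.48 ± 0.16, edgeR adjusted p = 0.0262) was lost with library size alone and when any sham heart, 28 d replicate 2 or 28 d replicate 3 was left out (adjusted p 0.0559 to 0.0674 without a heart). Hspb1 (HSP27) had 280, 244 and 313 CPM at 28 d and 140, 113 and 144 CPM at 7 d, against 239, 258 and 218 CPM in sham hearts. It fell at 7 d (-0.85 ± 0.13) and at 28 d overlapped sham (0.23 ± 0.13, not called; 0.48 and called with library size alone). The muscle proteins Hspb2 and Hspb3 fell at 7 d by 1.15 ± 0.16 and 2.41 ± 0.24 on the log2 scale. Hspb2 had 35.7, 34.1 and 26.6 CPM at 28 d and 19, 13.4 and 13.5 CPM at 7 d, against 33.9, 31.8 and 36.3 CPM in sham hearts. Hspb3 had 9.36, 9.06 and 7.76 CPM at 28 d and 4.52, 2.18 and 2.6 CPM at 7 d, against 15, 17.7 and 16.7 CPM in sham hearts. At 28 d Hspb2 overlapped sham (-0.08 ± 0.16, not called), and Hspb3 was lower (-0.92 ± 0.23, edgeR adjusted p = 0.0075).

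Together 6 of the 7 tested genes of the class fell at 7 d and the same 6 were higher at 28 d than at 7 d, and the exception both times was Hspb11 (0.76 ± 0.16 at 7 d, -0.47 ± 0.16 between the times), the transport protein that carries the prefix. Hspb11 had 5.71, 4.34 and 5.5 CPM at 28 d and 7.79, 6.54 and 7.17 CPM at 7 d, against 3.93, 4.23 and 4.56 CPM in sham hearts, and its difference between the times was lost in 3 alternatives. Cryab, the alpha B-crystallin that the prefix leaves out, had 1826, 1531 and 1359 CPM at 28 d and 683, 509 and 557 CPM at 7 d, against 2237, 2468 and 2254 CPM in sham hearts (log2 FC -0.56 ± 0.14 and -1.99 ± 0.15). Hspb2 and Cryab share 252 of the 834 exon bases of Hspb2 on opposite strands. Cardiomyocyte markers were lowest at 7 d, as was this class. At 28 d the hearts ranked alike in both (replicates 1, 2 and 3 at 81232, 62871 and 48583 CPM of markers, and 5358, 4863 and 3811 CPM of small heat shock proteins). The class summed to 1979, 1556 and 1698 CPM at 7 d, against 5510, 5847 and 5323 CPM in sham hearts. At 7 d the markers ranked in the same order (26135, 20965 and 21053 CPM), but in sham hearts in the opposite order (133037, 130992 and 134239 CPM), and Hspb1 was highest at 28 d in replicate 3, where the markers were lowest. The part of the markers in these values was not tested.

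**Figure D5:**
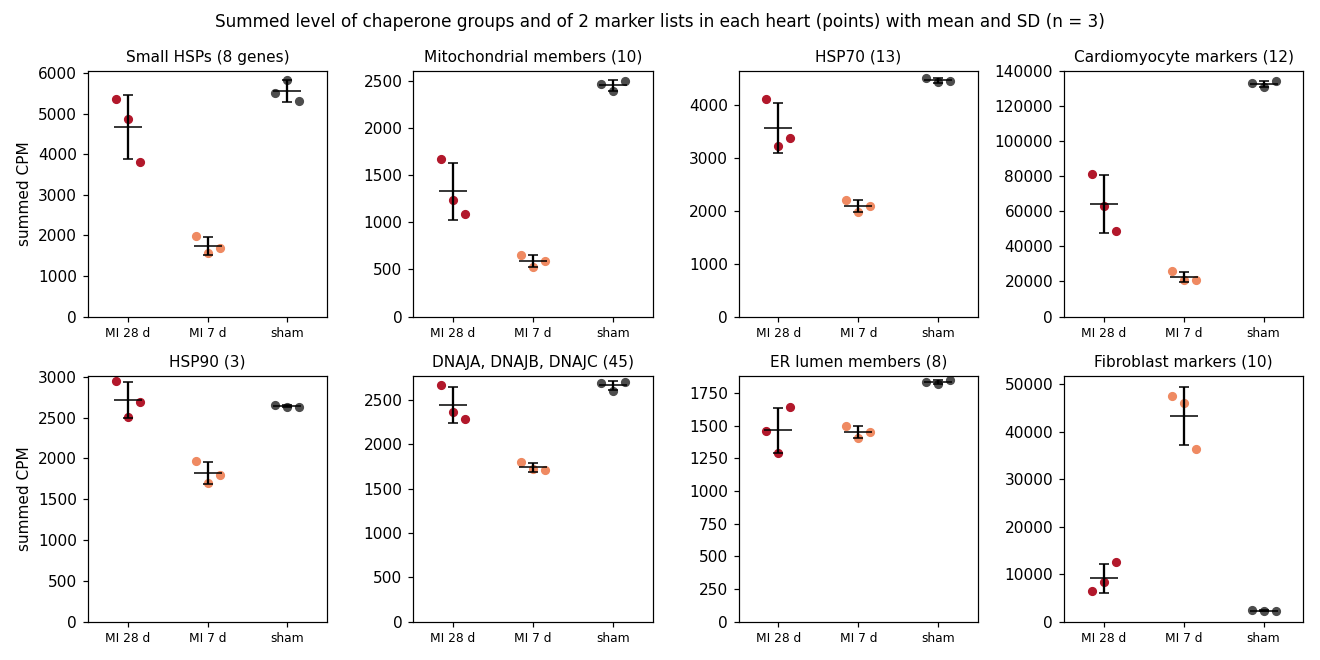
Summed CPM of groups of members, and of the cardiomyocyte and fibroblast markers, in each heart (points; y axis from 0; bars are mean and SD, n = 3) at 28 d, at 7 d and in sham hearts. Hspa9, Hspa5 and the J proteins of an organelle count in 2 panels, the small heat shock proteins and mitochondrial members were lowest at 7 d, and the ER members were close at both times after infarction.

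Members of the mitochondria moved as a block. All 10 fell at both times and all 10 were higher at 28 d than at 7 d, with medians of -0.88 at 28 d, -1.61 at 7 d and 0.70 between the times. The grouping by organelle was made from textbook knowledge after values had been seen. Hspd1, the chaperonin HSP60 (chromosome 1, 55077833-55088243), had 384, 261 and 226 CPM at 28 d and 123, 107 and 116 CPM at 7 d, against 556, 545 and 582 CPM in sham hearts. It fell by a log2 FC of 0.95 ± 0.17 at 28 d (edgeR adjusted p = 0.00137) and 2.29 ± 0.18 at 7 d (edgeR adjusted p = 2.14e-06). Its lid Hspe1 (HSP10), which shares the region before its start site and 112 exon bases with Hspd1, had 83.2, 55.9 and 55.3 CPM at 28 d and 51.7, 39.4 and 43.8 CPM at 7 d, against 95.5, 93.7 and 97.5 CPM in sham hearts. The fall of Hspe1 at 7 d, 1.09 ± 0.16, was smaller in size than that of Hspd1, a difference that was not tested. Its rise at 28 d over 7 d (0.53 ± 0.16, edgeR adjusted p = 0.0183) was lost in 4 alternatives and was 0.29 without the Adipoq-rich hearts.

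Hspa9 (mortalin), the HSP70 that pulls proteins into the matrix, had 808, 622 and 539 CPM at 28 d and 298, 230 and 262 CPM at 7 d, against 1177, 1116 and 1175 CPM in sham hearts (log2 FC -0.82 ± 0.15 and -2.13 ± 0.16). Its J partner Dnaja3 (TID1) had 171, 119 and 103 CPM at 28 d and 54.5, 47.6 and 49.6 CPM at 7 d, against 272, 259 and 275 CPM in sham hearts (-1.04 ± 0.16 and -2.41 ± 0.17). Both pairs of values show the same order of groups without overlap. The largest fall of the whole family was that of Dnajc28, a mitochondrial J protein. It had 31.1, 19.2 and 16.5 CPM at 28 d and 8.18, 8.96 and 8.81 CPM at 7 d, against 77, 75.4 and 73.9 CPM in sham hearts, a log2 FC of -1.76 ± 0.19 at 28 d (edgeR adjusted p = 0.000118) and -3.12 ± 0.21 at 7 d (edgeR adjusted p = 8.97e-07). Dnajc19, a J protein of the import motor whose loss causes a cardiomyopathy in humans, had 27.3, 21.6 and 24.2 CPM at 28 d and 21.7, 16.5 and 17.8 CPM at 7 d, against 51.1, 52.6 and 47.2 CPM in sham hearts. It fell by 1.04 ± 0.12 at 28 d and 1.43 ± 0.12 at 7 d. Its rise between the times (0.39 ± 0.12, edgeR adjusted p = 0.0234) was lost in 6 alternatives and was 0.17 without the Adipoq-rich hearts. Dnajc30 was similar (0.41 ± 0.14 between the times, lost in 6 and at 0.27 without the Adipoq-rich hearts), and it shares 436 of its 1661 exon bases with Bud23 on the other strand. Dnajc15, Dnajc11 and Dnajc4 fell by 1.77, 1.45 and 0.95 at 7 d and by 1.04, 0.79 and 0.52 at 28 d.

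Most of the members grouped as ER lumen rose at 7 d, while BiP fell. Of the 8 ER lumen members 5 rose, 2 fell and 1 did not pass at 7 d, with a median of 0.38, and at 28 d 3 rose and 1 fell (median 0.16). Of all tested genes 39% rose and 35.4% fell at 7 d, and 29.5% and 25.6% at 28 d. The grouping was made after values had been seen, and the majority at 7 d depends on it. It leaves out the ER J proteins Dnajc16 and Dnajc25, which fell at both times (-1.27 ± 0.14 and -0.61 ± 0.10 at 7 d). Also outside it is Dnajb14, which rose at 7 d (0.42 ± 0.12). The summed CPM of the 8 members was nevertheless below sham at both times, with means of 1463 at 28 d, 1452 at 7 d and 1834 in sham hearts. That sum is weighted by Hspa5, the most highly counted of the 8 in sham hearts, with means of 550, 430 and 911 CPM in the same order. Dnajc10 (ERdj5), which reduces disulfide bonds of misfolded proteins, had 76.3, 86.3 and 101 CPM at 28 d and 116, 123 and 113 CPM at 7 d, against 60.5, 61.8 and 60.7 CPM in sham hearts. The groups did not overlap, and it rose at both times and fell between them (log2 FC 0.53 ± 0.10 at 28 d, 0.94 ± 0.10 at 7 d, -0.42 ± 0.10 at 28 d against 7 d, edgeR adjusted p = 0.00524 for the last). Hspa13 rose by 0.51 ± 0.11 and 0.70 ± 0.11 at 28 d and 7 d. Dnajc3 (p58IPK), whose element is shown above, had 93.4, 90.2 and 131 CPM at 28 d and 104, 108 and 106 CPM at 7 d, against 78.6, 74.5 and 79.8 CPM in sham hearts. It rose at 7 d (0.45 ± 0.13), and its rise at 28 d (0.43 ± 0.13, edgeR adjusted p = 0.0175) was lost without any sham heart (adjusted p 0.0502 to 0.0695). Without the Adipoq-rich hearts the rise at 28 d was 0.2. Dnajb11 (ERdj3), a J partner of BiP for secreted proteins, had 73, 74.9 and 69.6 CPM at 28 d and 91.2, 78 and 81.5 CPM at 7 d, against 71, 62.9 and 69.4 CPM in sham hearts, and rose by 0.30 ± 0.08 at 7 d. Dnajc1 (ERdj1) had 42.9, 46.7 and 48.8 CPM at 28 d and 52.6, 59.7 and 54.3 CPM at 7 d, against 40.7, 36.4 and 41.8 CPM in sham hearts. It rose by 0.49 ± 0.09 at 7 d, and its lower value at 28 d than at 7 d (-0.27 ± 0.09) was lost in 4 alternatives.

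Hspa5 (BiP), the HSP70 of the ER, fell. It had 576, 462 and 611 CPM at 28 d and 436, 416 and 436 CPM at 7 d, against 901, 908 and 925 CPM in sham hearts, a log2 FC of -0.73 ± 0.11 at 28 d (edgeR adjusted p = 0.000519) and -1.08 ± 0.11 at 7 d (edgeR adjusted p = 1.2e-05). The value between the times, 0.36 ± 0.11 (edgeR adjusted p = 0.0198), was lost in 4 alternatives and stood at 0.11 without the Adipoq-rich hearts. Hsp90b1 (GRP94), which carries the same kind of element, had 519, 451 and 582 CPM at 28 d and 630, 539 and 590 CPM at 7 d, against 604, 600 and 596 CPM in sham hearts, and did not pass in any comparison. Without the Adipoq-rich hearts its log2 FC at 28 d against sham was -0.42. With library size alone Hsp90b1 was higher at 7 d (0.30, edgeR adjusted p = 0.0392). Dnajb9 (ERdj4), a target of the XBP1 arm of the ER stress response, had 47, 46.7 and 57.8 CPM at 28 d and 32.2, 34.8 and 35.2 CPM at 7 d, against 51.7, 53.2 and 53.3 CPM in sham hearts, and fell at 7 d (-0.63 ± 0.09). The members with the ER element thus differed in direction from one another at 7 d: Dnajc3 rose, Hspa5 fell and Hsp90b1 was not called.

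Of the cytosolic J proteins, Dnaja2 and Dnaja4 fell at 7 d by 1.18 ± 0.12 and 1.47 ± 0.13 on the log2 scale. Dnaja4 had 158, 129 and 104 CPM at 28 d and 59.8, 58.7 and 56.4 CPM at 7 d, against 170, 154 and 162 CPM in sham hearts, and shares 1581 of its 3589 exon bases with Wdr61 on the other strand. Its value at 28 d against sham (-0.31 ± 0.13, edgeR adjusted p = 0.0678) was called in 5 alternatives. Dnajb5, a J protein studied in cardiac hypertrophy, had 114, 94.4 and 72.7 CPM at 28 d and 44.8, 36.9 and 38.5 CPM at 7 d, against 130, 130 and 128 CPM in sham hearts. It fell by 0.47 ± 0.14 at 28 d (lost with library size alone, -0.23) and 1.69 ± 0.15 at 7 d. Dnajb2 fell by 1.12 ± 0.07 at 7 d. Dnajb6, which keeps filament proteins of muscle from aggregating, had 66.9, 71.1 and 62.5 CPM at 28 d and 62.9, 56.6 and 59.1 CPM at 7 d, against 63, 59.4 and 61.2 CPM in sham hearts. It passed in no comparison (7 d against sham -0.04 ± 0.07, 28 d against sham 0.13 ± 0.07), but library size alone called it higher at both times (0.29 and 0.37).

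Among the remaining DNAJC genes, Dnajc27 and Dnajc16 fell at both times. Dnajc12 fell at 7 d (-1.37 ± 0.21), and its fall at 28 d (-0.70 ± 0.21, edgeR adjusted p = 0.0171) was lost with library size alone (0.0679) and without sham replicate 1 (0.0703). Without the Adipoq-rich hearts its value at 28 d was -0.58. Dnajc14 rose at both (0.38 ± 0.08 and 0.42 ± 0.08 at 28 d and 7 d), although 1114 of its 6558 exon bases are shared with Ormdl2 on the other strand. Dnajc21, which serves ribosome assembly, fell at 7 d (-1.09 ± 0.09), was not called at 28 d (-0.18 ± 0.09) and was higher at 28 d than at 7 d (0.91 ± 0.09). Dnajc2, the J protein of the ribosome, rose at 28 d (0.33 ± 0.08, and 0.27 without the Adipoq-rich hearts). For Dnajb12, Dnajc8 and Dnajc18 the fall at 7 d (-0.30, -0.25 and -0.23) turned to 0.03, 0.09 and 0.10 with library size alone. The call of Dnajc18 was lost in 7 alternatives, among them the fits without any sham heart, without 7 d replicate 1, without 7 d replicate 3 (-0.16, edgeR adjusted p = 0.129) and without the Adipoq-rich hearts (0.0809), and that of Dnajc8 also without sham replicate 3 (0.0559) or 7 d replicate 2 (0.0528). Dnajc5, Dnajc9, Dnajc13, Dnajc17 and Dnajc24, which serve synaptic vesicles, histones, endosomes, splicing and diphthamide synthesis, passed in no comparison. The value of Dnajc5 at 7 d (-0.17 ± 0.07, edgeR adjusted p = 0.0516) was called lower in 6 alternatives, but library size alone called it higher (0.16). Dnajb14, a J protein of the ER membrane, had 8.23, 6.89 and 7.47 CPM at 28 d and 10.8, 12.8 and 11 CPM at 7 d, against 8.81, 8.37 and 8.62 CPM in sham hearts. It rose at 7 d (0.42 ± 0.12) and was lower at 28 d than at 7 d (-0.62 ± 0.12). Hspbap1, which binds HSP27, had 5.24, 4.78 and 6.37 CPM at 28 d and 7.55, 6.83 and 7.03 CPM at 7 d, against 3.05, 3.86 and 2.87 CPM in sham hearts. It rose by 0.75 ± 0.18 at 28 d (0.54 without the Adipoq-rich hearts) and 1.13 ± 0.18 at 7 d.

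The largest upward fold changes of the family at 7 d were those of Dnajb13 (log2 FC 2.47 ± 0.59) and Dnajb3 (2.16 ± 0.64), at the edge of detection. Dnajb13 had 0.465, 0.248 and 0.463 CPM at 28 d and 1.3, 1.29 and 0.914 CPM at 7 d, against 0.349, 0 and 0.254 CPM in sham hearts, and shares 305 of its exon bases with Ucp2 on the other strand. Of the 7 members not tested, Dnajb8, Dnajc5b and Dnajc5g had 0 counts in all 9 hearts, and Dnajb7, Dnajc6, Dnajc22 and Hspb9 stayed at a group mean of at most 1.29 CPM.

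The heat shock factors were lower at 7 d as messages. Hsf1 had 38, 36.4 and 38.1 CPM at 28 d and 25.7, 28.2 and 27.7 CPM at 7 d, against 48.2, 52.3 and 50.6 CPM in sham hearts. The groups did not overlap, and it fell by 0.43 ± 0.07 at 28 d (edgeR adjusted p = 0.000877; -0.18 and not called with library size alone) and 0.89 ± 0.07 at 7 d. Hsf2 had 20.3, 23.1 and 21 CPM at 28 d and 14.6, 16.2 and 14.5 CPM at 7 d, against 21.1, 17.5 and 19.1 CPM in sham hearts. It fell by 0.35 ± 0.10 at 7 d (edgeR adjusted p = 0.0115; -0.01 with library size alone, and -0.28 and not called without sham replicate 1) and rose between the times (0.51 ± 0.10). The counts are of messages and do not measure the activity of either factor.

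Partners of the chaperones outside the name rule were counted from lists written from textbook knowledge, with earlier results of these data known. Of all tested genes 39% rose and 35.4% fell at 7 d, 29.5% and 25.6% at 28 d, and 29.1% and 26.1% between the times. Of 38 folding regulators and cochaperones 6 rose and 24 fell at 7 d, 3 rose and 17 fell at 28 d, and 19 rose and 4 fell between the times, with medians of -0.53, -0.24 and 0.30. Fkbp4 (FKBP52) and Fkbp5 (FKBP51), immunophilins that act on steroid receptors bound to HSP90, moved apart. Fkbp4 had 248, 162 and 154 CPM at 28 d and 75.1, 62.3 and 64.8 CPM at 7 d, against 657, 633 and 643 CPM in sham hearts (log2 FC -1.78 ± 0.17 and -3.26 ± 0.18). Fkbp5, a gene known to respond to glucocorticoids, had 63.4, 67.7 and 93.1 CPM at 28 d and 48.4, 36.5 and 70.2 CPM at 7 d, against 18.8, 16.3 and 15.6 CPM in sham hearts (2.15 ± 0.24 and 1.61 ± 0.24). Unc45b, the myosin chaperone of striated muscle, had 186, 159 and 126 CPM at 28 d and 74.7, 60.1 and 60.7 CPM at 7 d, against 317, 312 and 325 CPM in sham hearts (-1.02 ± 0.14 and -2.29 ± 0.15). Bag3, the partner of Hspb8, had 354, 319 and 242 CPM at 28 d and 147, 126 and 136 CPM at 7 d, against 393, 394 and 390 CPM in sham hearts. It fell at 7 d (-1.53 ± 0.13), while its lower level at 28 d (-0.36 ± 0.13, edgeR adjusted p = 0.0392) was lost in 8 alternatives. Stip1 (HOP), which links HSP70 to HSP90, fell by 0.85 ± 0.11 at 7 d and was not called at 28 d (-0.06 ± 0.11). Grpel1, the exchange factor of mortalin, fell by 0.98 ± 0.14 and 1.86 ± 0.15 at 28 d and 7 d. Gak, which uncoats clathrin vesicles with HSC70, rose by 0.48 ± 0.09 and 1.01 ± 0.09.

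The mitochondrial chaperones and proteases outside the rule mostly had the direction of the mitochondrial members. Of these 11 genes 10 were lower at 7 d, 8 were lower at 28 d and 10 were higher at 28 d than at 7 d. The shares of all tested genes given with the folding regulators apply to the lists here too. Clpb and Clpx fell by 1.89 ± 0.13 and 1.78 ± 0.12 at 7 d, and Htra2, a protease of the intermembrane space, was the exception (0.50 ± 0.11). Of 12 ER lectins and disulfide isomerases 7 rose and 1 fell at 7 d, 3 rose and 1 fell at 28 d, and 6 fell and 0 rose between the times in edgeR's test. P4hb (protein disulfide isomerase) had 516, 578 and 613 CPM at 28 d and 978, 858 and 846 CPM at 7 d, against 380, 382 and 374 CPM in sham hearts (log2 FC 0.59 ± 0.10 and 1.24 ± 0.10). Pdia3 rose by 1.14 ± 0.12 at 7 d, and the member that fell was the lectin Canx (-0.51 ± 0.08). Hyou1, the HSP110 of the ER, fell at 7 d by 0.47 ± 0.12 (-0.13 and not called with library size alone). Of 14 genes of the cytosolic chaperonin CCT and prefoldin, 1 rose and 8 fell at 7 d and 0 rose and 2 fell at 28 d, and 6 rose and 1 fell between the times. Pfdn2 had the largest fall of that list at 7 d (-0.87 ± 0.09).

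The hearts at 28 d were also the least uniform for the family. The ratio of the highest to the lowest heart had a median of 1.29 over the tested members at 28 d and 1.17 at 7 d, against 1.08 in sham hearts. At 28 d 45 of the 69 members were highest in replicate 1, the heart with the most cardiomyocyte marker RNA of the 3. At 7 d 47 were highest in replicate 1, which also led in those markers (26135 CPM, against 20965 and 21053 CPM in the other 7 d hearts). The share of all tested genes that were highest in replicate 1 was not counted, so these numbers cannot be called particular to the family. The part of the markers in them was not tested.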

How the data were processed

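RNA from 9 hearts was sequenced with libraries from a KAPA RNA HyperPrep kit, per the labels' protocols. Trim Galore, STAR, featureCounts and mm10 are named, without versions, per the submitters' processing notes; for the annotation, strand setting and multimapping reads nothing is given in the sources used here. The authors deposited raw counts per gene symbol, not normalized. Groups and replicate numbers came from the sample titles.

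All 24964 symbols were tested together in R 4.3.3 with edgeR 4.0.16: filterByExpr (minimum count 10, minimum total 15) left 14347 genes, TMM scaling, 1 coefficient per group, two-sided quasi-likelihood tests, Benjamini-Hochberg adjustment over all tested genes and a threshold of 0.05. The standard error is the absolute log2 FC over the square root of F. CPM use TMM-scaled totals, and TPM use the GENCODE M21 exon length of a gene. Coordinates and windows before start sites came from RefSeq (GRCm38.p6). On simulated counts the test called 63 to 72% of 2-fold and 94 to 94.9% of 4-fold changes, with 8 or 9 false calls. The simulation gave each gene the same spread in all groups and left 13955 to 13976 genes unchanged. The real groups differ in spread and most genes change in some comparison, so these rates do not describe the test on these data.

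The members and lists were chosen with earlier results of these data known. Values in every heart are printed for 33 members and for the 4 largest rises and falls per comparison with a mean log2 CPM of at least 1; list genes were taken from the largest changes, and others were named after their values were seen. Alternatives were no filter or a stricter one (1 CPM in 3 hearts and a mean of 2 CPM), library size alone, DESeq2-type size factors, DESeq2 1.42.0, only the hearts compared, the replicate number as a block, leaving out each heart, and leaving out the 3 hearts with over 100 CPM of Adipoq. Between pairs of sham hearts, chi-square over degrees of freedom was 1.67 to 1.8, against 18.8 to 29.3 at 7 d and 31.4 to 71.2 at 28 d. The sham hearts thus differed little beyond counting noise, and the counts alone cannot show that they are independent samples. Each heart was kept as 1 mouse.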

Additional observations from a re-analysis of the deposited data

Results flagged for a closer look

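The difference between 7 d and 28 d was tested directly for each member, and 46 were higher and 6 lower at 28 d than at 7 d at an edgeR adjusted p below 0.05. Hsph1 was called in opposite directions against sham, higher at 28 d and lower at 7 d, with a log2 FC of 1.63 between the times (edgeR adjusted p = 1.88e-05). Hspa1l was called in opposite directions in the same way, with 1.20 between the times (edgeR adjusted p = 0.000384). The rise of each over sham at 28 d was lost in several alternatives, as given above, while the difference between the times was kept by both in all alternatives run. Groups hold 3 hearts, too few to test a single heart as an outlier.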

How the results depend on the processing

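Of the calls among members, 50 of 57 at 7 d against sham, 26 of 39 at 28 d against sham and 37 of 52 at 28 d against 7 d were kept in every alternative that tested them. The stricter filter left 67 members and removed Dnajb3 and Dnajb13. Their calls at 7 d against sham are counted as kept, although that alternative did not test them. The number higher at 28 d against sham moved by more than 1.5 times with library size alone, to 25. Leaving out each heart in turn gave 13 to 15 higher and 40 to 45 lower at 7 d against sham, 13 to 16 and 22 to 27 at 28 d against sham, and 41 to 49 and 3 to 9 at 28 d against 7 d, where the lower count fell to 3 without 7 d replicate 1 and without 28 d replicate 2. Without the Adipoq-rich hearts 14 members were higher and 44 lower at 7 d against sham, and the calls of Dnajc18 and Hspa2 were lost. At 28 d that fit holds only 1 heart, so its calls there are weak evidence, although the counts kept in every alternative include them. Those lost were Dnajc2, Dnajc3, Dnajc12, Hspbap1 and Hsph1 at 28 d against sham. Between the times they were Dnajb3, Dnajc1, Dnajc2, Dnajc19, Dnajc25, Dnajc27, Dnajc30, Hspa5, Hspbp1 and Hspe1. Deviations of hearts with the same replicate number correlated at -0.09 to 0.3, and those with different numbers at -0.58 to 0.45. With 3 hearts per group the deviations depend on one another, so these values cannot show whether hearts were paired. The fit with the replicate number as a block gave 14 and 42, 15 and 25, and 45 and 6. With library size alone the log2 FC at 7 d against sham changed sign for Dnajb12 (0.03), Dnajc18 (0.10) and Dnajc8 (0.09), which were then not called, and for Dnajb6 (0.29), Dnajc2 (0.26), Dnajc5 (0.16) and Hsp90b1 (0.30), which were then called higher. At 28 d against sham it changed sign for Dnajc5 (0.21) and Cct3 (0.24), both then called. This scaling moved the median of all genes by more than 0.1, and the cause of other changes was not tested. Members near or under 1 CPM, such as Dnajb3 and Dnajb13, rest on few counts, and intervals of the size of their standard errors (0.50 to 0.76) do not resolve their changes well. No sham harvest time, batch or sampled region is given, so differences of these kinds and the groups cannot be told apart.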
